A study of Mus musculus with 6 samples.

Results

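The expression of 10 genes of bone morphogenetic protein (BMP) signaling was examined in 6 breast tumors of Balb/c mice: the ligand genes *Bmp2*, *Bmp4* and *Bmp7*, the receptor genes *Bmpr1a* and *Bmpr1b*, the decoy receptor gene *Bambi*, and the target genes *Id1*, *Id2*, *Id3* and *Id4*. They were chosen by name as BMP pathway genes, and all 10 were listed among the 18460 genes with reads in at least 1 tumor. All 6 mice carried the PyMTtg transgene, an MMTV-driven viral oncogene that causes mammary carcinoma, lacked Rag1 (Rag1KO) and therefore their own T and B cells, and were injected with CD4+ T cells at 4 weeks of age. The 3 tumors of the TEST group came from mice that also carried K14-TSLPtg, in which a keratin 14 promoter drives the cytokine TSLP in keratinocytes, and the 3 tumors of the CONTROL group came from mice without it. Tumors were taken at the endpoint, between weeks 18 and 20. The comparison asks how tumors differ when mice given CD4+ T cells also overexpress TSLP. Below, triplets of values follow the replicate numbers 1, 2 and 3 of a group.

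BMPs are secreted dimers that bind pairs of type I and type II receptor kinases, which phosphorylate Smad1, Smad5 and Smad9. These enter the nucleus with Smad4 and switch on target genes, among which the *Id* genes are the classical readout. Id proteins have a helix-loop-helix but no DNA-binding region, so they capture E proteins and keep them off DNA. In the mammary gland BMP4 and BMP2 act between epithelium and stroma, *Id2* is needed for the lobuloalveolar growth of pregnancy, *Id4* marks basal cells and *Id1* and *Id3* are prominent in blood vessels.

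*Id2*, *Id3* and *Id4* differ in level and in spread between tumors, and the sequence just upstream of each is shown so that their promoters can be compared beside their values. Each is the 250 bases before the annotated start from RefSeq on GRCm38.p6, written 5′ to 3′ on the strand of the gene. Capitals mark GGCGCC, a GC-rich Smad-binding palindrome, and GTCTG or its reverse complement CAGAC, the Smad box. No match of one motif overlapped a match of the other. *Id1* is not shown because no upstream window was available for it.
*Id2*, chr12:25096093-25096342, minus strand: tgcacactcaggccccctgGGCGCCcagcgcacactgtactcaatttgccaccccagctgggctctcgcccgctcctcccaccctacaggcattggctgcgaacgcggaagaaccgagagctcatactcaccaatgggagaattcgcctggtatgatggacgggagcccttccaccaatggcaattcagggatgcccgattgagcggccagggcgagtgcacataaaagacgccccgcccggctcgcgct
*Id3*, chr4:136143572-136143821, plus strand: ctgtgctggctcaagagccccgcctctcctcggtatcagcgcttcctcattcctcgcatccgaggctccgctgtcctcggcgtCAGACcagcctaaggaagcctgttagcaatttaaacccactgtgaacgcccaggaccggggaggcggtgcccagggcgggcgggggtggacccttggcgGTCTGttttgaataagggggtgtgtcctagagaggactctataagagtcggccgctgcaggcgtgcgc
*Id4*, chr13:48260866-48261115, plus strand: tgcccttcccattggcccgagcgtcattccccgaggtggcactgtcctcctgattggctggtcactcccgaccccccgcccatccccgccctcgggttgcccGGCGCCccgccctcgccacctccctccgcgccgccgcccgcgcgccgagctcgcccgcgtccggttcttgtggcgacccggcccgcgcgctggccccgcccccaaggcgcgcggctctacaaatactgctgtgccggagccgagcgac

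GGCGCC occurred once in the *Id2* window, 231 bases before the start, and once in the *Id4* window, 148 bases before it. The *Id3* window had no GGCGCC and 2 Smad boxes, 167 and 68 bases before the start. Of all 32851 windows of this length, 9.59% held GGCGCC and 42.2% held the Smad box, and a match describes only the letters.

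Expected counts, the authors' estimates of reads per gene, summed to between 8373390 and 9449565 per tumor. Levels below are given as CPM (counts relative to library size, scaled by edgeR's TMM factors), and 3 counts were equal to between 0.318 and 0.366 CPM in a tumor. Luminal epithelial markers were abundant in every tumor, with between 1527 and 4925 CPM summed over 6 genes. *Tslp* itself had 2, 2 and 3 counts across the controls and 12, 7 and 2 across the test tumors, so the groups overlapped. *Rag1* had between 4 and 27 counts per tumor, and the files do not show from which part of the gene these reads came. Control replicate 2 was nearer to the mean of the 3 test tumors than to the mean of the other 2 controls for 64.4% of all 13706 tested genes. Over the BMP and *Id* genes this held for 8 of 9, with *Id4* as the exception. A mean of 3 tumors varies less than a mean of 2, and the other controls were not compared in this way. The share therefore does not show that control replicate 2 stood apart. Results are also given without it, a choice made from these same values. Leaving out a control for its nearness to the test tumors widens differences between the groups. The p-values and counts without it are therefore no support for a difference.

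*Bmp7* had the largest difference of the set. Its level was 117, 21.5 and 141 CPM across the controls, and 15.3, 8.30 and 14.2 CPM across the test tumors. Every test tumor lay below every control tumor, with control replicate 2 closest to the test tumors. The means were 93.2 ± 63.3 CPM in control and 12.6 ± 3.78 CPM in test tumors (SD, n = 3 each). The log2 fold change was -2.88 (standard error 0.66, 95% interval -4.43 to -1.34), which is a level 7.38-fold higher in control tumors with an interval from 2.53 to 21.5. The unadjusted p was 0.00276 and the adjusted p was 0.394 by the quasi-likelihood test of edgeR, adjusted by Benjamini-Hochberg over all tested genes, so the gene did not pass. The exact permutation test, two-sided, gave p = 0.1, the smallest that 3 tumors against 3 allow. Without control replicate 2 the log2 fold change was -3.35, with an adjusted p of 0.0154 in the same test. That tumor was the control nearest to the test tumors in these same values, so this call is no support for a difference. DESeq2 on all 6 tumors gave -2.88 with an adjusted p of 0.000909. *Bmp7* (NCBI Gene 12162) lies on chromosome 2 (GRCm38) between 172868012 and 172940321 and encodes a ligand of epithelia, kidney and bone.

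The log2 fold change was positive for all tested luminal (6), skeletal muscle (8) and adipocyte (2) markers and for 6 of 7 fibroblast markers. It was positive for 5 of 7 endothelial, 2 of 6 macrophage and 1 of 7 basal and myoepithelial markers. Of the T cell markers tested, 1 of 2 was positive. Sums of the luminal and muscle lists follow, and those of the other lists are given further below. The 6 luminal markers summed to 1835, 3527 and 1527 CPM across the controls and to between 4573 and 4925 CPM in the test tumors, so that control replicate 2 was again the control nearest to the test group. None of the 6 luminal markers was at 0 in any tumor. The 8 skeletal muscle markers summed to 7.52, 191 and 5.43 CPM across the controls and to between 109 and 958 CPM in the test tumors. Control replicate 2 thus lay within the test range of the sum of the muscle markers. Of these markers, *Myl1* was at 0 in control replicates 1 and 3, and *Ckm* in control replicate 1. The part of any of these cell types in the level of *Bmp7* was not tested. In bulk tumors fewer cells that express a gene and less of its RNA per cell cannot be told apart.

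*Bmp2* and *Bmp4*, the closely related ligands of the same family branch, were low. *Bmp2* (NCBI Gene 12156, chromosome 2, 133552159 to 133562896) was at 2.43, 0.433 and 2.02 CPM across the controls, and at 0.461, 1.34 and 0.955 CPM across the test tumors. The groups overlapped because control replicate 2 lay below every test tumor in CPM. Control replicate 2 and test replicate 1 each had 4 counts, so only the scaling put them in order. *Bmp4* (NCBI Gene 12159, chromosome 14, 46383525 to 46390669) was at 7.06, 0.108 and 2.24 CPM in the controls and 1.61, 2.32 and 0.743 CPM in the test tumors, in the same order. Control replicate 2 thus held the lowest level of both ligands, and its *Bmp4* estimate of 0.73 counts was under the floor of 3 counts. The log2 fold changes were -0.82 for *Bmp2* (95% interval -2.61 to 0.98) and -1.0 for *Bmp4* (95% interval -3.55 to 1.55), with adjusted p = 0.797 and 0.82, in that order, by the same edgeR test. For *Bmp4* the direction rested on control replicate 1, without which the log2 fold change was 0.39. The counts of *Bmp4* and *Bmp7* were not whole numbers, so part of their reads had been shared out by the authors' estimate.

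**Figure D1:**
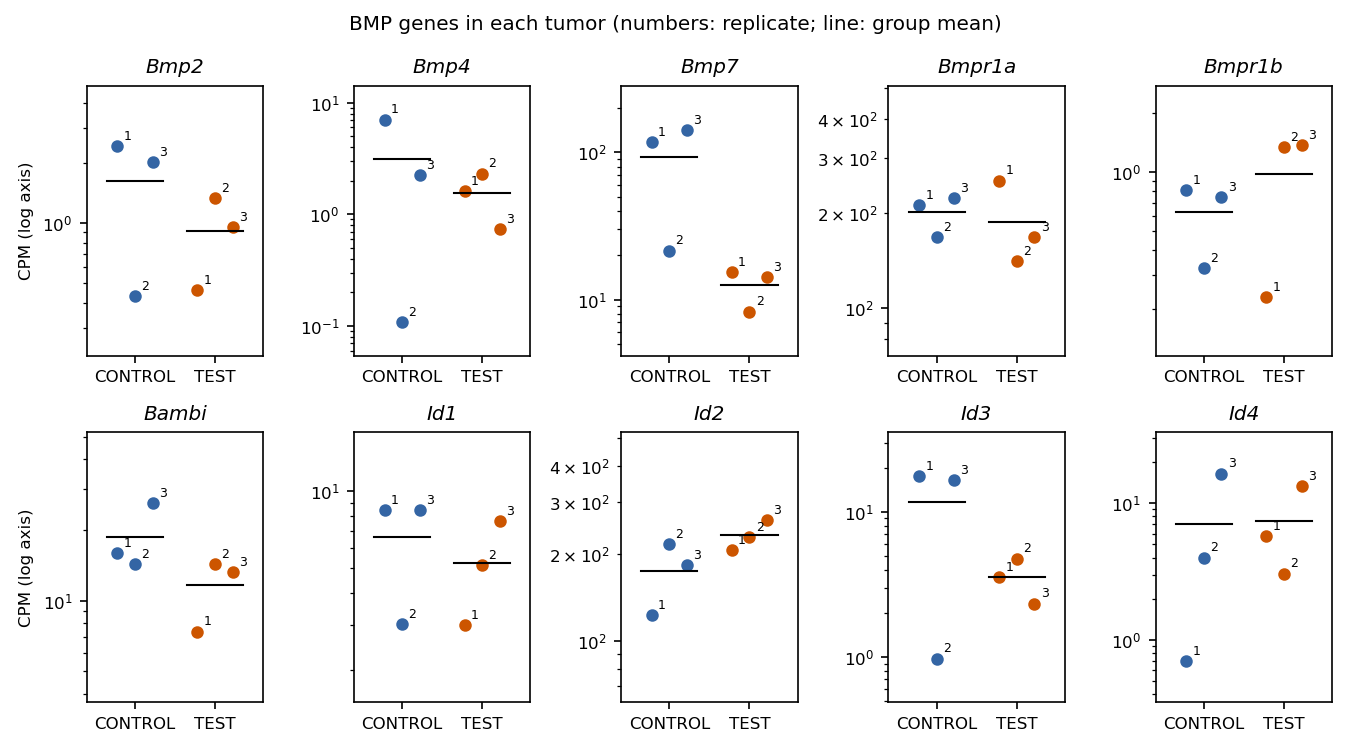
CPM on a log axis for each of the 10 genes in the 3 control and 3 test tumors, with the replicate number beside each point and a line at the group mean. *Bmp7* has no overlap between the groups, and control replicate 2 (21.5 CPM) is the control nearest to the test tumors. For *Bmp2*, *Bmp4* and *Id3*, control replicate 2 is below every test tumor, though for *Bmp2* it and test replicate 1 each had 4 counts.

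*Bmpr1a*, the broadly expressed type I receptor, was at 212, 168 and 224 CPM across the controls and at 254, 141 and 168 CPM across the test tumors. The test tumors spanned the whole range of the controls. Its log2 fold change was -0.10 with a 95% interval from -0.79 to 0.59, so the data leave room for a test level between 0.58 and 1.51 times that of control tumors. The direction turned without test replicate 2, to 0.07. *Bmpr1a* (NCBI Gene 12166) lies on chromosome 14 from 34411061 to 34503336.

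*Bmpr1b*, the type I receptor with the narrower expression, was near the limit of the depth. It had 7, 3 and 7 counts across the controls and 2, 11 and 13 counts across the test tumors, and it alone of the set did not pass edgeR's filter on low counts. Fitted without the filter its log2 fold change was 0.63, and 0 of the 10 genes were called by edgeR in that fit. A difference could hardly be detected at this depth. *Bmpr1b* (NCBI Gene 12167) lies on chromosome 3 from 141837135 to 142169585.

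*Bambi* encodes a membrane protein that resembles a type I receptor without the kinase and dampens signaling. It was at 15.9, 14.3 and 26.0 CPM across the controls and at 7.38, 14.3 and 13.2 CPM across the test tumors. All but 1 pair of tumors were in the order of a lower test level, and that pair, control replicate 2 and test replicate 2, was nearly tied at 14.2755 and 14.2814 CPM. With RLE scaling, with library totals or on the FPKM scale the groups therefore did not overlap. The log2 fold change was -0.69 (standard error 0.39, 95% interval -1.59 to 0.22, adjusted p = 0.694 in edgeR's quasi-likelihood test). *Bambi* has NCBI Gene identifier 68010.

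Of the *Id* genes, read as targets of the pathway, *Id1* and *Id3* had a negative and *Id2* and *Id4* a positive log2 fold change, and none passed the test. *Id3* was at 17.6, 0.973 and 16.6 CPM across the controls and at 3.57, 4.76 and 2.33 CPM across the test tumors. Control replicates 1 and 3 were above every test tumor and control replicate 2 was below every one. The log2 fold change was -1.72 (standard error 0.90, 95% interval -3.80 to 0.36, adjusted p = 0.67 in edgeR's quasi-likelihood test). Without control replicate 2 it was -2.26, with an unadjusted p of 0.00126 and an adjusted p of 0.0644 in the same test. The 7 endothelial markers summed to 144, 101 and 146 CPM across the controls and to between 127 and 149 CPM in the test tumors, with none at 0 in any tumor. Their part in the level of *Id3* was not tested. *Id3* (NCBI Gene 15903) lies on chromosome 4 from 136143822 to 136145392.

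*Id1* spanned less between tumors than *Id3*. It was at 8.45, 3.03 and 8.42 CPM across the controls and at 3.00, 5.13 and 7.64 CPM across the test tumors. Control replicate 2 and test replicate 1 were the lowest, nearly level with each other. The log2 fold change was -0.33 with a 95% interval from -1.62 to 0.96 and an adjusted p of 0.885 in edgeR's quasi-likelihood test. *Id1* (NCBI Gene 15901) lies on chromosome 2 from 152736251 to 152737410.

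*Id2* had the highest FPKM of the 4 *Id* genes in every tumor. It was at 123, 216 and 183 CPM across the controls and at 205, 228 and 261 CPM across the test tumors. Control replicate 2 lay inside the range of the test tumors and the other controls below it. The log2 fold change was 0.41 (standard error 0.28, 95% interval -0.25 to 1.07, adjusted p = 0.732 in edgeR's quasi-likelihood test), and it ran from 0.21 to 0.60 when tumors were left out in turn. *Id2* (NCBI Gene 15902) lies on chromosome 12 from 25093799 to 25096092.

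*Id4* varied within both groups. It was at 0.694, 4.00 and 16.5 CPM across the controls and at 5.77, 3.05 and 13.3 CPM across the test tumors. The lowest and the highest level of the 6 tumors were both in controls. The log2 fold change was 0.06 (95% interval -2.26 to 2.38), and it ran from -0.67 without test replicate 3 to 1.64 without control replicate 3. The 7 basal and myoepithelial markers summed to 792, 454 and 2935 CPM across the controls and to 1156, 669 and 520 CPM across the test tumors. Control replicate 3 was highest for both *Id4* and this sum, but the other tumors did not follow a common order. Genes of the list differed among themselves. *Krt5* was at 8.56, 78.3 and 421 CPM across the controls and at 156, 106 and 178 CPM across the test tumors. It was, like *Id4*, lowest in control replicate 1 and highest in control replicate 3. *Trp63* was instead highest in control replicate 1, at 371 CPM. Test replicate 3 had 13.3 CPM of *Id4* beside a marker sum of 520 CPM, and control replicate 1 had 0.694 CPM beside 792 CPM. The part of basal cells in the level of *Id4* was not tested. *Id4* (NCBI Gene 15904) lies on chromosome 13 from 48261116 to 48266028.

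**Figure D2:**
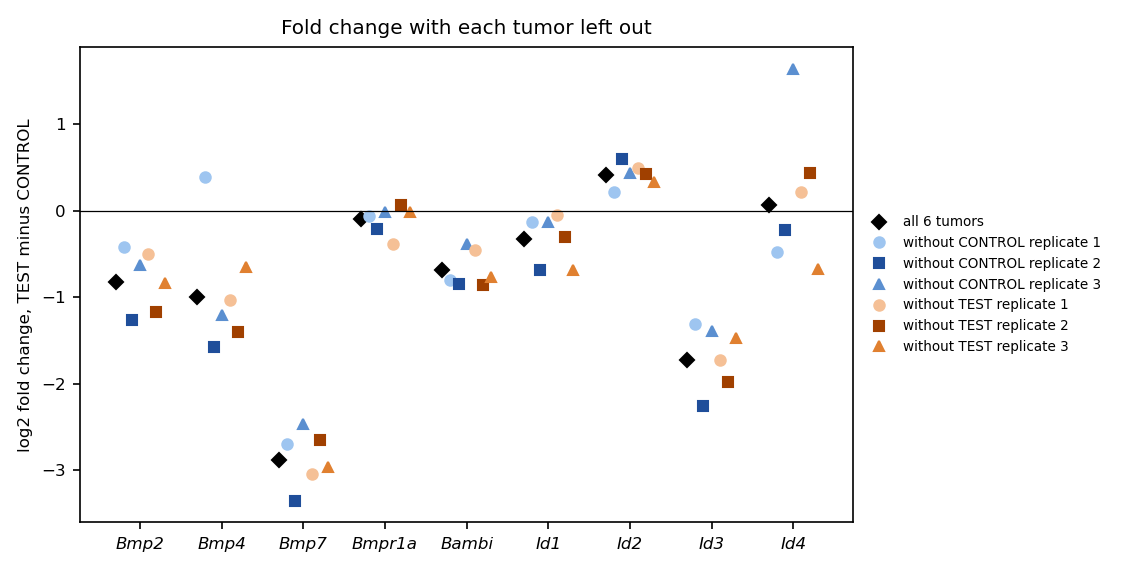
Log2 fold change of test minus control tumors from edgeR for the 9 tested genes, with all 6 tumors (black) and with each tumor left out. *Bmp7* stays between -3.35 and -2.46, while *Bmp4*, *Bmpr1a* and *Id4* cross 0.

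Across the set, 9 genes passed the filter and were tested, of which 7 had a negative and 2 a positive log2 fold change, with a median of -0.69 against 0.02 over all tested genes. The quasi-likelihood test of edgeR called 0 of these 9 at an adjusted p of up to 0.05, and 0 of all 13706 genes (0%). At an unadjusted p under 0.05 there was 1 of 9, *Bmp7*, where the share of all tested genes was 8.41% in either direction and 5.26% for genes lower in test tumors. The groups did not overlap for 1 of 9, again *Bmp7*, against 12.0% of all tested genes in either direction, 5.86% for lower and 6.12% for higher genes. DESeq2 called 1 of the 10 genes it fitted, *Bmp7*, where it called 2.37% of the genes to which it gave an adjusted p. Without control replicate 2 edgeR called *Bmp7* alone of the 10 genes then tested, against 1.28% of all genes. Of the 9 genes of the main fit, 6 had groups that did not overlap without it, against 35.1%. These 6 were *Bmp2*, *Bmp7*, *Bambi*, *Id1* and *Id3*, all lower, and *Id2*, higher in test tumors. Neither count is support for a difference, since control replicate 2 was left out after these same values had been seen.

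Levels of different genes were compared as FPKM, which the authors corrected for gene length. In control tumors the order of median FPKM was *Id2* (148), *Bmpr1a* (35.7), *Bmp7* (29.5), *Id3* (17.4), *Id1* (8.87), *Bambi* (2.91), *Id4* (2.51), *Bmp4* (1.16), *Bmp2* (0.58) and *Bmpr1b* (0.14). From *Bmpr1a* downward, the ranges of each gene and the next overlapped over the 3 controls, so only *Id2* was separated from its neighbor. In test tumors *Id2* (170) and *Bmpr1a* (30.2) held the first places, *Id1* (5.47) the third, and *Bmp7* had the fifth place at a median of 3.82, with a range from 2.14 to 4.29 that overlapped those of *Id3* (3.92) above it and *Id4* (3.61) below it. *Bambi* (2.57) followed, separate from *Bmp4* (0.85), which was separate from *Bmp2* (0.26).

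The make-up of each family followed from this. *Bmp7* held 88.2%, 97.4% and 95.8% of the FPKM summed over the 3 ligands across the controls and 81.4%, 59.1% and 85.5% across the test tumors. The summed ligand FPKM was 33.5, 6.2 and 41.2 in the controls and 5.27, 3.62 and 4.47 in the test tumors. *Bmpr1a* FPKM exceeded *Bmp7* FPKM by 1.21, 5.19 and 1.06 times in the controls and by 11.1, 11.3 and 7.92 times in the test tumors, without overlap between the groups. *Id2* held 77.2%, 96.1% and 79.4% of the FPKM summed over the 4 *Id* genes across the controls, and between 91.5% and 93.8% in the test tumors. As a share of the same sum, *Id3* held 14.9%, 0.585% and 9.77% in the controls and between 1.1% and 2.63% in the test tumors, so that control replicate 2 lay outside the test range on the far side for both.

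**Figure D3:**
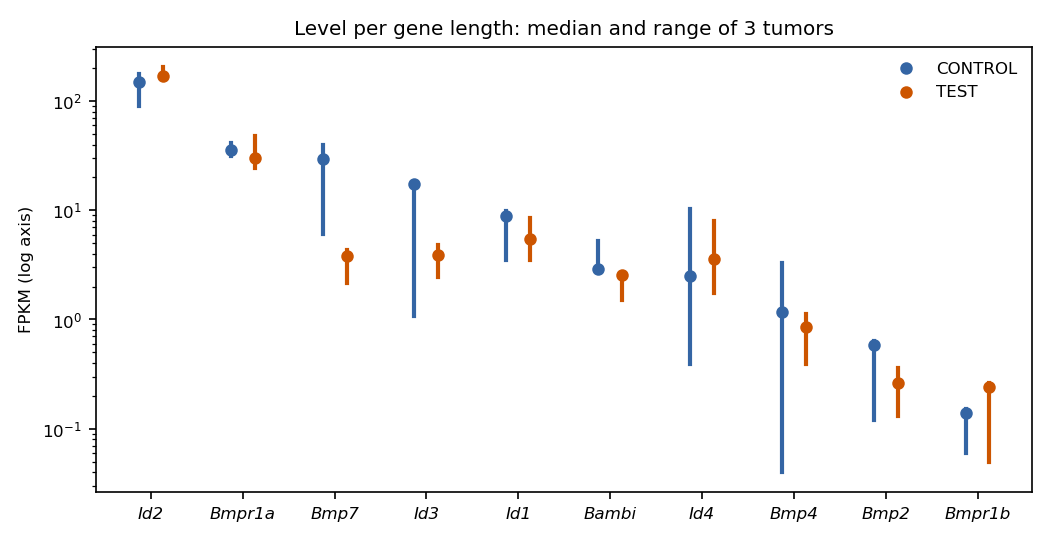
FPKM on a log axis for the 10 genes, ordered by the control median, with the median (point) and the range (line) of 3 tumors in each group. *Id2* is highest in both groups, and the *Bmp7* range moves from 6.04 to 39.5 in control tumors to 2.14 to 4.29 in test tumors.

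The rest of the pathway was described with 59 further genes, of which 56 were listed and 39 were tested. Of these 24 had a negative and 15 a positive log2 fold change, with a median of -0.25. None had an adjusted p of 0.05 or less in edgeR's quasi-likelihood test. In the same test 3 of 39 had an unadjusted p under 0.05, all lower in test tumors. The share of all tested genes was 8.41% in either direction and 5.26% for lower genes. The groups did not overlap for 3 of 39, *Acvr1*, *Dlx5* and *Runx2*, all lower. The share of all tested genes was 12.0% in either direction and 5.86% for lower genes. *Dlx5* had 16, 28 and 18 counts across the controls and 0, 13 and 9 across the test tumors. It passed the filter through its high controls, so its lack of overlap is no support for a difference. DESeq2 called 0 of the 56 it tested, 7 of them at an unadjusted p under 0.05, beside 8.61% of all genes it tested.

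Among ligands, 3 of 13 further genes were tested and none had an unadjusted p under 0.05. Of these 3 the largest difference was that of *Bmp15*, known for its role in the oocyte, with 60, 5 and 27 counts across the controls and 0, 10 and 4 across the test tumors, and a log2 fold change of -2.64 (95% interval -5.46 to 0.18). *Bmp5*, named after its values were seen, was under the filter with 82, 0 and 285 counts across the controls and 2, 3 and 0 counts across the test tumors. Control replicates 1 and 3 carried nearly all of its reads, and control replicate 2 had none, where a count of 0 allows up to 3 counts. Its mean was 13.3 CPM in control and 0.199 CPM in test tumors, the latter under the floor of 3 counts. Without control replicate 2 *Bmp5* passed the filter, through the controls where it is high, and was the 1 gene called of the 44 then tested (adjusted p = 0.0341, edgeR), against 1.28% of all genes. Since the filter let it in for its high controls, that call is no support for a difference.

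Of the 9 tested among 10 further receptors and co-receptors, 7 were lower and 2 higher. *Eng*, the endoglin co-receptor for BMP9 and TGF-β on endothelium, was at 245, 29.5 and 116 CPM across the controls and at 17.6, 37.2 and 37.1 CPM across the test tumors. Control replicates 1 and 3 were above every test tumor and control replicate 2 was among them. Its log2 fold change was -2.08 (standard error 0.70, unadjusted p = 0.0189, adjusted p = 0.483 in edgeR's quasi-likelihood test). The type II receptor *Bmpr2* had a log2 fold change of -0.49 with a 95% interval from -1.42 to 0.43.

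Of 17 extracellular inhibitors, 16 were listed and 9 tested, 6 of them lower and 3 higher, none with an unadjusted p under 0.05. The largest difference was that of *Fst*, follistatin, with a log2 fold change of -0.85 (95% interval -2.31 to 0.61). *Nog*, the gene of noggin, had at most 0.433 CPM in any tumor.

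All 8 Smads and their inhibitors were tested, 3 of them lower and 5 higher. *Smad7*, an inhibitory Smad of BMP and TGF-β signaling, was at 41.2, 10.8 and 23.3 CPM across the controls and at 8.65, 9.03 and 12.7 CPM across the test tumors. Test replicate 3 exceeded control replicate 2, and all other pairs were lower in the test tumor. Its log2 fold change was -1.31 (standard error 0.49, unadjusted p = 0.0299, adjusted p = 0.529 in edgeR's quasi-likelihood test). Log2 fold changes were 0.12 for *Smad1* and -0.40 for *Smad5*, and 0.42 for the inhibitory *Smad6*.

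Of the other 8 targets, 7 were tested, 3 lower and 4 higher. *Runx2*, an osteoblast transcription factor also found in mammary epithelium, was at 46.1, 23.0 and 31.3 CPM across the controls and at 7.84, 18.1 and 11.9 CPM across the test tumors. Every test tumor was below every control tumor. Its log2 fold change was -1.41 (standard error 0.41, unadjusted p = 0.00913, adjusted p = 0.446 in edgeR's quasi-likelihood test). The E proteins that Id proteins bind had log2 fold changes of -0.02 for *Tcf3*, -0.12 for *Tcf4* and -0.51 for *Tcf12*, each with an interval that included 0.

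**Figure D4:**
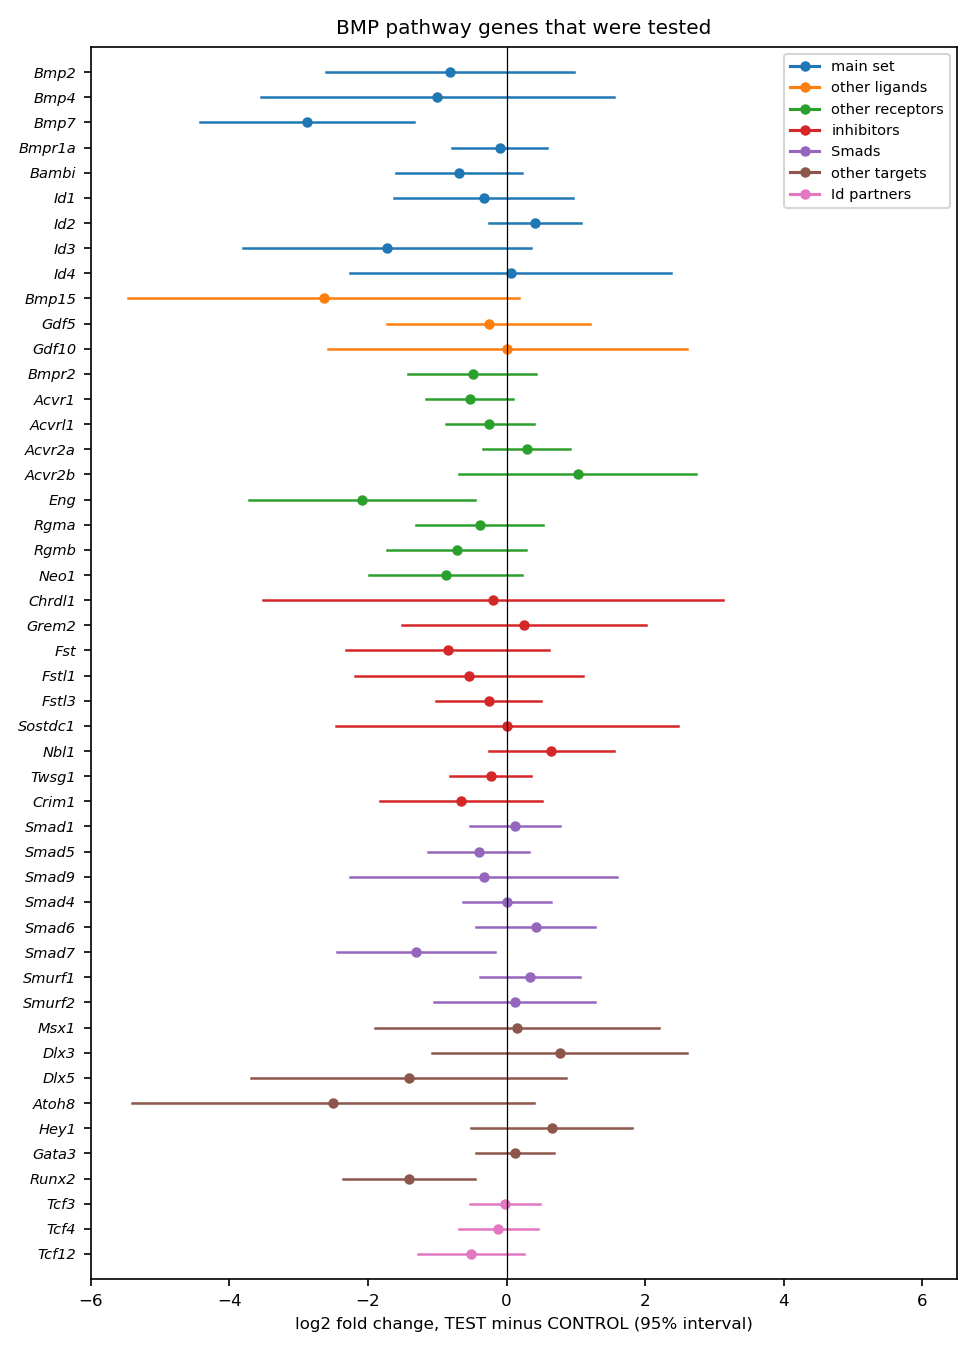
Log2 fold change of test minus control tumors with its 95% interval from edgeR for the 9 tested genes of the main set and 39 further tested pathway genes, colored by role. The intervals of *Bmp7*, *Eng*, *Smad7* and *Runx2* lie below 0, and none of these genes passed the adjustment over all genes.

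For the 4 genes whose level spanned more than 2 on the log2 scale over the 6 tumors, the tested genes of most similar profile were listed, by the root mean square difference of log2(CPM + 0.5) after subtracting the mean of each gene. *Bmp7*, with a span of 4.01, was closest to *Adra1d* (0.29), *Soga1* (0.29) and *Rgs14* (0.31). *Bmp4*, with a span of 3.64, was closest to *Areg* (0.34), *Poln* (0.34) and *Pf4* (0.35). *Id3*, with a span of 3.62, was closest to *Fhl1* (0.24), *Pygo1* (0.27) and *Islr* (0.29). *Id4*, with a span of 3.83, was closest to *Wnt6* (0.45), and *Col7a1* and *Fat2* followed at 0.60. These are descriptions over 6 tumors.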

How the data were processed

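RNA sequencing of 6 tumors was used, 3 TEST and 3 CONTROL. For each tumor the authors deposited an unnormalized expected count and an FPKM, normalized for gene length and depth, for every gene. The submitters' notes name mm10, Bowtie, BWA and RSEM, without versions or roles. The authors' methods give Bowtie for the alignment of RNA reads, and name BWA only for chromatin immunoprecipitation sequencing. Genes not listed for a tumor were set to 0. NCBI Gene identifiers were matched to RefSeq on GRCm38.p6 for 18400 of 18460 genes.

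Expected counts were rounded, filtered with filterByExpr, scaled by TMM and tested in R 4.3.3 with edgeR 4.0.16 (quasi-likelihood test, no covariate, Benjamini-Hochberg adjustment over all tested genes). The standard error was the log2 fold change divided by the square root of F. The authors' methods name Poisson, NOISeq or EBSeq without saying which was used. TMM factors ran from 0.937 to 1.039. Per the study, each tumor came from its own mouse. The 95% intervals of fold changes include the spread between tumors, and floors of counts cover counting error only. Exact permutation tests used log2(CPM + 0.5). Alternatives were DESeq2 1.42.0, RLE, library totals, other filters, limma 3.58.1 on log2(FPKM + 1) and log2(FPKM + 0.1), the replicate block and leaving out each tumor.

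The genes and lists were chosen with earlier results of these data known. Named genes were the 10, further pathway genes with an unadjusted p under 0.05 or the largest change of a list without any, and the 3 of nearest profile. *Bmpr2*, *Nog*, *Smad1*, *Smad5*, *Smad6*, *Tcf3*, *Tcf4*, *Acvr1*, *Dlx5*, *Bmp5*, *Myl1*, *Ckm*, *Trp63*, *Krt5*, *Krt14* and *Krt17* are not covered by it, and were chosen with their values in view. Upstream windows were matched for 6 of the 10 genes and 3 were printed.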

Additional observations from a re-analysis of the deposited data

How the results depend on the processing

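Of 122 fold changes recomputed under an alternative, 115 kept their direction and their side of an adjusted p of 0.05, 2 (both *Bmp7*) passed it and 5 changed direction. The count of genes called was 1 with DESeq2 in place of 0, and from 0 to 1 when tumors were left out in turn. The count at an unadjusted p under 0.05 was 2 with DESeq2 in place of 1, and from 1 to 2 with tumors left out. The count without overlap was 2 with RLE scaling, 2 with library totals and 2 on FPKM in place of 1, and ran from 1 to 6 with tumors left out, 6 being without control replicate 2. The changes of direction were in *Bmp4* (from -1.57 to 0.39 with tumors left out, positive without control replicate 1), *Bmpr1a* (from -0.38 to 0.07, positive without test replicate 2) and *Id4* (from -0.67 to 1.64, negative without control replicate 1, control replicate 2 or test replicate 3). The adjusted p of *Bmp7* ran from 0.000909 to 0.996 over its alternatives, the highest without control replicate 1. Causes were not tested.

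The groups share replicate numbers, but deviations of same-numbered tumors from their group means correlated at -0.025, 0.121 and -0.137, so the numbers were not taken as pairs. With the replicate block 0 genes of the set were called and the *Bmp7* log2 fold change was -2.57 (adjusted p = 0.564 in edgeR). Over all genes, DESeq2 called 343 and edgeR 0, or 182 without control replicate 2 and 0 without any other single tumor. At an unadjusted p under 0.05 in edgeR there were 2020 genes without control replicate 2. There were 654 without control replicate 1 and 701 without control replicate 3. The filter of 10 counts in every tumor gave no value for *Bmp2*, *Bmp4*, *Id3* and *Id4*, each under 10 counts in at least 1 tumor.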

Other observations

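Marker lists of other cell types were summed in CPM as a description of the tissue. Fibroblast markers (7 genes) ran from 970 to 2952 CPM in control and from 1173 to 4983 CPM in test tumors, and basal and myoepithelial markers (7 genes) from 454 to 2935 CPM and from 520 to 1156 CPM. Adipocyte markers (6 genes) ran from 12.9 to 24.7 CPM in control and from 15 to 249 CPM in test tumors, macrophage markers (6 genes) from 286 to 615 CPM and from 269 to 640 CPM. T cell markers were scarce in both groups, with 3.89 to 5.97 CPM in control and 3.46 to 5.37 CPM in test tumors over the 5 of 6 genes that were listed. The ranges of the groups overlapped for each of these lists and for the muscle and endothelial lists, and they did not for the luminal list, where 4 of 6 genes were higher without overlap, beside 6.12% of all tested genes. The basal transcription factor *Trp63* was at 371, 16 and 58.5 CPM in control replicates 1, 2 and 3 and between 6.47 and 23.4 CPM in the test tumors, with control replicate 2 again inside the test range. It had the most negative log2 fold change of the 7 basal and myoepithelial markers (-3.15) and does not stand for the list. Of the 7, 6 were negative, among them *Krt5* (-0.21) and *Krt17* (-0.09), and 1 was positive, *Krt14* (0.68).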
